A study of Mus musculus with 18 samples.

Results

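This report covers 10 genes of epithelial cell junctions, Cdh1, Epcam, Ocln, Cldn1, Cldn3, Cldn4, Cldn7, Tjp1, Ceacam1 and F11r, in mouse mammary cells grown alone or in co-culture. They were chosen by name from the 19938 genes that had a probe set assigned to a single gene on the array. All 10 were measured, and each had 1 such probe set. Expression had been measured on 18 whole-transcript arrays, 3 in each of 6 groups.

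Comma-D cells are a mouse mammary epithelial line, labelled normal and erbB2-negative. MMTV-neu cells are a mammary cancer line, labelled erbB2-positive and positive for phosphorylated erbB2. The name stands for a mouse mammary tumour virus promoter that drives neu, the rat erbB2 gene. The other 4 groups came from co-cultures of both lines at 1:50 or 1:1. Those cultures were detached, bound by an anti-erbB2 antibody and magnetic beads, and split on a column into an erbB2-positive and an erbB2-negative fraction. The labels call both erbB2-negative fractions normal and the 1:1 erbB2-positive fraction cancer. The 1:50 erbB2-positive fraction is labelled redirected, with erbB2 but without phosphorylated erbB2. Which line was the one in excess at 1:50 is not given. MMTV-neu cells grew in a medium of their own, while Comma-D cells and all co-cultures grew in Comma-D medium, so the differences between the lines cannot be told apart from a difference in medium. Each type of cell is a single line. The labels do not say that replicates were separate cultures, so the p-values measure only the spread between these samples.

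Epithelial cells are held together by adherens junctions, in which E-cadherin (Cdh1) binds its like on the next cell and is tied to actin by catenins. Above them lie tight junctions, in which claudins and occludin seal the gap between cells and zonula occludens proteins such as ZO-1 (Tjp1) form the scaffold beneath. In the mammary gland these junctions keep milk components within the lumen, and the claudins present differ between cell layers and with differentiation. EpCAM (Epcam) is an epithelial surface adhesion protein, JAM-A (F11r) an immunoglobulin-type adhesion molecule of tight junctions, and CEACAM1 (Ceacam1) an immunoglobulin-type adhesion receptor of the apical epithelial surface.

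Values are deposited log2 intensities after RMA, a method that corrects the background of an array, gives all arrays a common scale and summarises the probes of each set. A difference of 1 is a doubling. Each probe set has its own response, so levels are compared between groups for 1 gene and not between genes. A difference was called where the limma adjusted p, corrected over all 19938 genes, was under 0.05. Array spread differed between groups: the standard deviation over all probe sets averaged 1.98 in Comma-D and 1.53 in MMTV-neu. Replicate 1 of the 1:1 erbB2-negative fraction stood apart from its fellows, with a standard deviation of 1.75 against 1.88 and 1.91. Correlations between arrays of a group were at least 0.996 for Comma-D, 0.959 for MMTV-neu and 0.961 for 1:1 erbB2-negative cells. By keratins, Comma-D had the higher Krt14 (10.98 against 7.43) and Krt5 (9.77 against 7.71), basal keratins, and MMTV-neu the higher Krt8 (11.34 against 7.41), a luminal one. The luminal list was not uniform: 6 of its 9 genes were higher in MMTV-neu and 3 lower, with Krt18 at 8.57 against 9.34, Krt7 at 7.38 against 8.14 and Gata3 at 9.0 against 9.87. Of 8 basal markers 6 were lower in MMTV-neu and 1 higher. Erbb2, the gene of the sorted antigen, read 8.15, 8.32 and 8.12 in Comma-D and 8.14, 7.89 and 8.14 in MMTV-neu, and it was called neither between the lines nor between the sorted fractions of either ratio. The Erbb2 values therefore do not show the labelled difference in erbB2, and fractions are named here as labelled. The neu transgene derives from rat, and whether this mouse probe set reads it was not tested. Vimentin (Vim), an intermediate filament of mesenchymal and basal cells, was at 12.93 in Comma-D and 8.13 in MMTV-neu.

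The lines differed at 9 of the 10 junction genes, in both directions. Cdh1, Epcam, Tjp1, F11r, Ceacam1 and Cldn1 were lower in MMTV-neu than in Comma-D, with differences from -3.74 to -1.42 log2 units, while Cldn3, Cldn7 and Ocln were higher by 0.46 to 1.19. Cldn4 was not called. Over all genes 30.4% were called lower and 56.4% higher, and the median difference was 0.40 against -1.77 for the members. The 5 members in the highest of 4 equal classes of genes by Comma-D level (Cdh1, Epcam, Tjp1, Ceacam1 and F11r) were all lower, in a class where 83.7% of genes were called lower and the median difference was -1.37. The other 5 lay in the next class down, where 34.5% were called lower, 39.0% higher and the median was 0.02. In RNA from whole cultures, fewer cells of a type and less RNA per cell cannot be told apart.

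**Figure D1:**
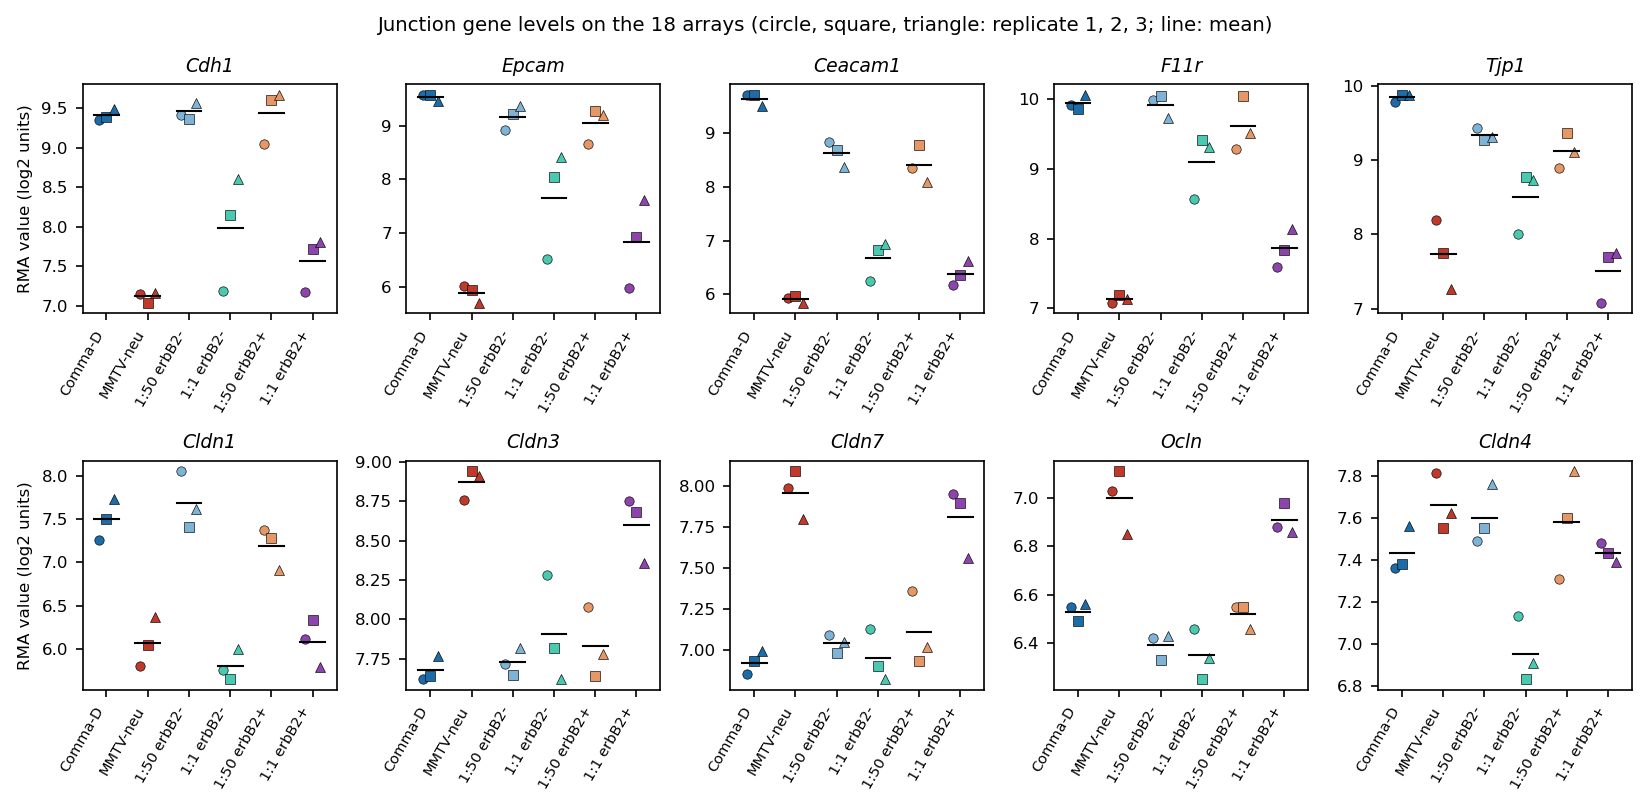
Levels of the 10 junction genes on all 18 arrays. The y axis is the deposited RMA value (log2), the x axis the 6 groups, symbols mark replicates 1, 2 and 3, and lines mark group means. Cdh1, Epcam, Tjp1, Ceacam1 and F11r are high in Comma-D and in both 1:50 fractions, while Cldn3, Cldn7 and Ocln are highest in MMTV-neu and the 1:1 erbB2-positive fraction.

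E-cadherin, the core of the adherens junction, was measured by the Cdh1 probe set (10575052). Cdh1 read 9.35, 9.39 and 9.49 on the Comma-D arrays and 7.15, 7.04 and 7.16 on the MMTV-neu arrays. The 1:50 erbB2-negative arrays gave 9.42, 9.37 and 9.57, and the 1:50 erbB2-positive arrays 9.05, 9.60 and 9.67. Both 1:50 fractions thus reached the Comma-D level and none of their arrays came near MMTV-neu. The 1:1 erbB2-negative arrays gave 7.19, 8.15 and 8.61, and the 1:1 erbB2-positive arrays 7.18, 7.72 and 7.81. Replicate 1 of the erbB2-negative fraction lay at the MMTV-neu level, well below its fellows. Between the lines the Cdh1 difference was -2.29 (SE 0.26, 4.90-fold, adjusted p = 4.62e-07). Comma-D exceeded the 1:1 erbB2-negative fraction by 1.43 (adjusted p = 0.0011). No other step in the order of group means was called.

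EpCAM was also high in Comma-D and in both 1:50 fractions and low in MMTV-neu. Epcam (probe set 10447383) read 9.57, 9.56 and 9.45 in Comma-D and 6.01, 5.93 and 5.70 in MMTV-neu, where all 3 arrays were under the array median. Values that low are close to background, which compresses ratios. The difference was -3.65 (SE 0.39, 12.5-fold, adjusted p = 2.92e-07). It was smaller after centring on reference genes, so its size depends on the scale of the arrays. The 1:50 fractions gave 8.91, 9.21 and 9.37 for erbB2-negative and 8.65, 9.27 and 9.19 for erbB2-positive cells. All 6 arrays lay under the lowest Comma-D array, by differences of -0.36 and -0.49 that were not called; the 95% intervals ran from -1.19 to 0.47 and from -1.32 to 0.34. At 1:1 the erbB2-negative arrays gave 6.52, 8.04 and 8.41 and the erbB2-positive arrays 5.97, 6.93 and 7.61. These 2 sets overlapped.

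JAM-A fell between the lines by more than ZO-1, and its level split the 1:1 fractions. F11r (probe set 10351623) read 9.91, 9.86 and 10.06 in Comma-D and 7.08, 7.19 and 7.13 in MMTV-neu, a difference of -2.81 (SE 0.21, 7.03-fold, adjusted p = 5.41e-09). In the 1:1 co-culture it read 8.57, 9.41 and 9.32 in erbB2-negative cells and 7.59, 7.84 and 8.14 in erbB2-positive cells, with no overlap. The erbB2-positive cells were lower by 1.24 (SE 0.21, adjusted p = 0.000295). F11r was also the only member called between the 1:1 erbB2-positive fraction and MMTV-neu, being higher in the fraction by 0.73 (SE 0.21, adjusted p = 0.0245) against 4.21% of all genes called higher. That call was lost without MMTV-neu replicate 1 (0.70) or replicate 3 (0.73) and without replicate 2 (0.73) or replicate 3 (0.58) of the fraction, and after centring (0.39). Without replicate 1 of the fraction, Epcam was called there as well, at 1.39 against 0.96 with all arrays; with the replicate number as a block it was called at 0.96 (adjusted p = 0.0404).

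ZO-1, the scaffold to which claudins and occludin bind, was the member with the widest spread among MMTV-neu arrays. Tjp1 (probe set 10564343) read 9.78, 9.88 and 9.88 in Comma-D and 8.20, 7.75 and 7.26 in MMTV-neu, a difference of -2.11 (SE 0.23, 4.31-fold, adjusted p = 3.64e-07). At 1:1 the erbB2-negative arrays gave 8.01, 8.77 and 8.74 and the erbB2-positive arrays 7.08, 7.70 and 7.75, which did not overlap. The erbB2-positive cells were lower by 0.99 (SE 0.23, adjusted p = 0.00267). The 1:50 arrays gave 9.43, 9.27 and 9.31 for erbB2-negative and 8.89, 9.37 and 9.11 for erbB2-positive cells. All 6 lay below Comma-D, by 0.51 and 0.72, and neither difference was called.

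CEACAM1 differed strongly between the lines and was the only one of the 10 called in both 1:50 fractions against Comma-D. Ceacam1 (probe set 10561008) read 9.71, 9.72 and 9.51 in Comma-D and 5.93, 5.97 and 5.84 in MMTV-neu, the latter all under the array median. The difference was -3.74 (SE 0.19, 13.3-fold, adjusted p = 6.88e-11). Signal that low compresses ratios, while centring on reference genes made this difference smaller. In the 1:50 co-culture it read 8.85, 8.70 and 8.38 in erbB2-negative and 8.35, 8.79 and 8.10 in erbB2-positive cells, all below Comma-D. The erbB2-positive fraction was lower than Comma-D by 1.23 (SE 0.19, 2.35-fold, adjusted p = 0.00072). The erbB2-negative fraction was lower by 1.00 (SE 0.19, 2.01-fold, adjusted p = 0.00848); this call was lost without Comma-D replicate 1 or 2 (-0.97 each), without replicate 3 of the fraction (-0.87), and after quantile normalization (-0.91). In the 1:1 co-culture Ceacam1 read 6.24, 6.83 and 6.93 in erbB2-negative and 6.17, 6.35 and 6.62 in erbB2-positive cells. Both sets lay far nearer to MMTV-neu than to Comma-D.

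The claudins, the sealing proteins of the tight junction strands, did not move as a group. Claudin-1 fell between the lines: Cldn1 (probe set 10438769) read 7.26, 7.50 and 7.73 in Comma-D and 5.80, 6.05 and 6.37 in MMTV-neu, a difference of -1.42 (SE 0.19, adjusted p = 3.31e-06) and 0.00 after centring on reference genes (adjusted p = 0.998). Its 1:1 values were 5.76, 5.65 and 6.00 in erbB2-negative and 6.12, 6.33 and 5.79 in erbB2-positive cells. Both 1:1 fractions therefore lay at the MMTV-neu level, and all 3 groups were under the array median on every array. Signal that low compresses ratios, yet the difference between the lines went to 0.00 after centring. Its size is thus not bounded from below. In the 1:50 fractions it read 8.05, 7.41 and 7.62 in erbB2-negative and 7.37, 7.28 and 6.91 in erbB2-positive cells. The last group lay under the erbB2-negative one on every array, by 0.50 (95% interval 0.10 to 0.91 lower), which was not called (adjusted p = 0.303).

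Claudin-3 and claudin-7, barrier-forming claudins common in epithelia, were higher in MMTV-neu. Cldn3 (probe set 10526241) read 7.62, 7.64 and 7.77 in Comma-D and 8.76, 8.94 and 8.91 in MMTV-neu, a difference of 1.19 (SE 0.15, 2.28-fold, adjusted p = 1.82e-06). At 1:1 it read 8.28, 7.82 and 7.62 in erbB2-negative and 8.75, 8.68 and 8.36 in erbB2-positive cells. The erbB2-positive arrays were all higher, and the erbB2-negative arrays reached down to the Comma-D level. Cldn7 (probe set 10377673) read 6.85, 6.93 and 6.99 in Comma-D and 7.99, 8.09 and 7.80 in MMTV-neu, a difference of 1.04 (SE 0.13, 2.05-fold, adjusted p = 1.49e-06). In the 1:1 co-culture Cldn7 read 7.13, 6.90 and 6.82 in erbB2-negative and 7.95, 7.90 and 7.56 in erbB2-positive cells, a clear gap with no overlap. At 1:50 it read 7.09, 6.98 and 7.05 in erbB2-negative and 7.36, 6.93 and 7.02 in erbB2-positive cells, which overlapped.

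Occludin, a membrane protein of the tight junction strands, followed claudin-3 and claudin-7 on a smaller scale. Ocln (probe set 10411668) read 6.55, 6.49 and 6.56 in Comma-D and 7.03, 7.11 and 6.85 in MMTV-neu, a difference of 0.46 (SE 0.09, 1.38-fold, adjusted p = 0.000127). At 1:1 it read 6.46, 6.25 and 6.34 in erbB2-negative and 6.88, 6.98 and 6.86 in erbB2-positive cells. The erbB2-positive arrays stood with MMTV-neu, and the erbB2-negative arrays lay below every Comma-D array, by 0.18 on average, which was not called. The 1:50 arrays ran from 6.33 to 6.43 for erbB2-negative and from 6.46 to 6.55 for erbB2-positive cells.

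Claudin-4 was the exception to both patterns. Cldn4 (probe set 10534395) read 7.36, 7.38 and 7.56 in Comma-D and 7.81, 7.55 and 7.62 in MMTV-neu, a difference of 0.23 (SE 0.13, 95% interval -0.04 to 0.49, adjusted p = 0.104). After centring it was called higher in MMTV-neu at 1.65, and after quantile normalization at 0.64. The 1:1 erbB2-negative fraction gave the lowest arrays of all, 7.13, 6.83 and 6.91, against 7.48, 7.43 and 7.39 in its erbB2-positive partner. It lay below both lines, by 0.48 against Comma-D (SE 0.13, adjusted p = 0.0102) and by 0.71 against MMTV-neu (SE 0.13, adjusted p = 0.000136). Cldn4 was the only member called outside the range of the lines in any fraction, and 246 genes (1.23%) were called below both lines in that fraction. The difference from Comma-D was not called without Comma-D replicate 3 (-0.41), after centring (-0.06) or after quantile normalization (-0.32). The 1:50 arrays of Cldn4 ran from 7.49 to 7.76 for erbB2-negative and from 7.31 to 7.82 for erbB2-positive cells, within or near the range of the lines.

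RefSeq (GRCm38.p6) windows of 250 bases before the start of transcription were searched for CAGGTG, an E-box bound by the E-cadherin repressors of the Snail and Zeb families, and for AACCNGGTT, a motif of grainyhead-like factors. Both strands were read, and the motifs share no overlap in these windows. Of the members, 9 had a window, all but Cdh1, whose promoter was therefore not searched. In all, 11 windows were read. CAGGTG was in 5 of them, for Epcam, Ocln, Cldn4, Cldn7 and F11r, against 17.2% of 32851 windows of all genes. AACCNGGTT was in 0 member windows and 0.24% of all. A match is a description of the letters and not a site. The windows given are of 2 genes that were high in Comma-D, Epcam and F11r, and the neighbouring claudins of chromosome 5, of which Cldn3 was higher in MMTV-neu and Cldn4 was not called. Capitals mark CAGGTG or its reverse complement CACCTG.
Epcam, chr17:87635729-87635978, plus strand: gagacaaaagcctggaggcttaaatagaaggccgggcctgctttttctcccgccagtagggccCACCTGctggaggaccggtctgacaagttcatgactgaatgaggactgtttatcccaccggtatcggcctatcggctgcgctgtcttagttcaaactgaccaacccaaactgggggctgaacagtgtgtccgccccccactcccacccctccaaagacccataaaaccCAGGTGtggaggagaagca
F11r, chr1:171437311-171437560, plus strand: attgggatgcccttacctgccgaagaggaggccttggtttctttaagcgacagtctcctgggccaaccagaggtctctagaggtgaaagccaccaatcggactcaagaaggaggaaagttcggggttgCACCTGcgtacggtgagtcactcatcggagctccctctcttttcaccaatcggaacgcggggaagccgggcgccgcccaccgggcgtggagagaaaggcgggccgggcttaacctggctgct
Cldn3, chr5:134985964-134986213, plus strand: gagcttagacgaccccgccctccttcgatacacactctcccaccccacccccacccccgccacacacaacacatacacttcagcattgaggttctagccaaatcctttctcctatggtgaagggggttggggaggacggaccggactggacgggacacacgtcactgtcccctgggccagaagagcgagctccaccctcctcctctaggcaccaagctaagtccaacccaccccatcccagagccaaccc
Cldn4, chr5:134946935-134947184, minus strand: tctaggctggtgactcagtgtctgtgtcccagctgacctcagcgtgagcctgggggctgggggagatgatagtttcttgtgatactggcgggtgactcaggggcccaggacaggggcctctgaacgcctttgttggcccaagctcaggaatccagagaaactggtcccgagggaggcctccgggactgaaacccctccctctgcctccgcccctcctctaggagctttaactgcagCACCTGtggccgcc
Epcam carried 2 matches, 187 to 182 and 19 to 14 bases before the start. The F11r match lay 122 to 117 and the Cldn4 match 14 to 9 bases before it, and the Cldn3 window had none. Genes on either side of the Comma-D and MMTV-neu difference thus carried the motif.

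In each 1:50 fraction 1 of the 10 junction genes was called against Comma-D. Of all genes, 5.71% were called in the erbB2-positive and 1.68% in the erbB2-negative fraction. In the erbB2-positive fraction Ceacam1 was the only one of the 10 called lower than Comma-D and none was called higher, against 4.54% of all genes called lower. Tjp1 came next at -0.72 (SE 0.23, adjusted p = 0.0793). Cdh1 differed by 0.03 (95% interval -0.52 to 0.57). With only the 6 compared arrays in the fit, Tjp1 was called as well (adjusted p = 0.0115). In the erbB2-negative fraction Ceacam1 was again the only member called, against 1.08% of genes called lower, and Tjp1 (-0.51) was called as well with only the compared arrays (adjusted p = 0.00691). Both comparisons use the same Comma-D arrays, so they are not independent. In the erbB2-positive fraction Krt8 lay 75.3% and Foxa1 34.5% of the way from Comma-D to MMTV-neu, but Vim 1.83% and Krt14 -14.5%. Of the luminal list 3 genes were called higher than Comma-D there and 1 lower, and of the fibroblast and mesenchymal list 1 and 2. How much RNA of each line the 1:50 fractions held was not tested.

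The 1:50 fractions were also set against each other, which asks whether sorting on erbB2 separated cells that differ at these genes. None of the 10 was called, 1 had an unadjusted p under 0.05, and the differences ran from -0.50 for Cldn1 to 0.13 for Ocln. Over all genes limma called 2 of 19938 (0.01%), with 2675 at an unadjusted p under 0.05. The intervals still allow sizeable differences, such as -0.96 to 0.70 for Epcam and -0.56 to 0.53 for Cdh1. Against MMTV-neu, the 1:50 erbB2-positive fraction was higher at 6 members and lower at 3, with 25.8% of genes called higher and 57.6% lower. In the highest class by Comma-D level 76.5% of genes were called higher. Cdh1 was higher by 2.32 (SE 0.26, 5.00-fold), Epcam by 3.16 (SE 0.39, with MMTV-neu near background) and F11r by 2.48 (SE 0.21, 5.58-fold). The 3 lower genes were Cldn3 (-1.04), Cldn7 (-0.85) and Ocln (-0.48). After centring, 4 members were called higher and 4 lower. Tjp1 (0.21) and Cldn1 (-0.06) were then not called, and Cldn4 was called lower at -1.26. Quantile normalization also called Cldn4 lower, at -0.45.

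The erbB2-positive cells of the 1:1 co-culture lay much nearer to MMTV-neu, though F11r was called higher there. They were lower than Comma-D at 6 members and higher at 3, the same genes as in the comparison of the lines, which shares the Comma-D arrays. Of all genes 32.5% were called lower and 45.8% higher, and in the highest class by Comma-D level 85.3% were called lower. Differences ran from -3.27 for Ceacam1 to 0.92 for Cldn3. The ratio therefore split the erbB2-positive fractions. The 1:50 fraction was higher at Cdh1, Epcam, Ceacam1, F11r, Tjp1 and Cldn1 and lower at Cldn3, Cldn7 and Ocln, against 27.4% of genes called higher and 44.0% lower. In the highest class by Comma-D level, which holds the first 5 of these, 77.9% of genes were called higher. Ceacam1 differed by 2.04 (SE 0.19, adjusted p = 8.08e-07), F11r by 1.75 (SE 0.21, adjusted p = 5.51e-06) and Tjp1 by 1.61 (SE 0.23, adjusted p = 2.93e-05). On the other side Cldn3 was at -0.77 (SE 0.15, adjusted p = 0.00039) and Cldn7 at -0.70 (SE 0.13, adjusted p = 0.00023). In all of these 9 genes the 3 and 3 arrays did not overlap. How many of all genes did so was not counted, while 71.4% of all genes were called.

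The erbB2-negative cells of the 1:1 co-culture, labelled normal, differed from Comma-D at 7 members, all lower, against 20.9% of genes called lower. In the highest class of genes by Comma-D level, which holds Cdh1, Epcam, Tjp1, Ceacam1 and F11r, 53.5% were called lower (median -0.50). In the next class down, which holds the other members, 26.1% were. Ceacam1 was lower by 2.98 (SE 0.19, 7.91-fold, adjusted p = 4e-08), Epcam by 1.87 (SE 0.39, adjusted p = 0.00293) and Cldn1 by 1.69 (SE 0.19, adjusted p = 2.54e-05). Cdh1 (-1.43), Tjp1 (-1.34), F11r (-0.84) and Cldn4 (-0.48) followed. The 3 members that are higher in MMTV-neu did not follow: Cldn3 was at 0.23, Cldn7 at 0.03 and Ocln at -0.18, none called. Vim at 12.79 and Krt14 at 10.98 were at their Comma-D levels in the same arrays, while Krt8 and Foxa1 lay 85.2% and 53.3% of the way to MMTV-neu. Vim and Krt14 are far lower in MMTV-neu. Other markers of the same lists went differently: Dcn (5.24 against 8.48) and Pdgfra (8.36 against 10.65) were below Comma-D and Krt5 (11.01 against 9.77) above it. Of the luminal list 3 genes were called higher and 3 lower, and of the fibroblast and mesenchymal list 2 and 2. How much MMTV-neu RNA the fraction held was not tested, and such RNA and a change in Comma-D cells cannot be told apart in a mean of all cells. After quantile normalization 4 members were called, Cdh1, Epcam, Cldn1 and Ceacam1.

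Against MMTV-neu the 1:1 erbB2-negative cells were higher at 5 members and lower at 4, with 21.3% of genes called higher and 56.7% lower. In the highest class by Comma-D level 68.9% of genes were called higher. Higher were F11r (1.97), Epcam (1.78), Cdh1 (0.86), Tjp1 (0.77) and Ceacam1 (0.75), and lower were Cldn7 (-1.01), Cldn3 (-0.96), Cldn4 (-0.71) and Ocln (-0.65). Cldn1 was at -0.27 and was not called. The Tjp1 arrays of both groups overlapped. After centring on the reference genes, Cdh1 (-0.14), Tjp1 (-0.23) and Ceacam1 (-0.25) turned to the other side of 0 and were no longer called.

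The 1:50 erbB2-negative fraction exceeded the 1:1 one at 7 members, and was lower at none, against 21.4% of genes called higher. In the highest class by Comma-D level 52.8% of genes were called higher, and in the next class down 29.4%. Ceacam1 was higher by 1.98 (SE 0.19, 3.94-fold), Cldn1 by 1.89 (SE 0.19), Epcam by 1.5 (SE 0.39), Cdh1 by 1.47 (SE 0.26), Tjp1 by 0.83 (SE 0.23), F11r by 0.82 (SE 0.21) and Cldn4 by 0.65 (SE 0.13). Without replicate 1 of the 1:1 fraction, 4 of the 10 were called and Epcam (0.94), Tjp1 (0.58) and F11r (0.55) were not. Without replicate 1 of the 1:50 fraction, Tjp1 (0.78) was not called. With only the 6 compared arrays in the fit, none of the 10 was called, and 2 of all 19938 genes were.

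Within the 1:1 co-culture, 6 of the 10 junction genes were called between the sorted fractions, against 56.1% of all genes. The erbB2-positive cells were higher at Cldn7 by 0.86 (SE 0.13, adjusted p = 0.000147), at Ocln by 0.56 (SE 0.09, adjusted p = 0.000234), at Cldn3 by 0.69 (SE 0.15, adjusted p = 0.00194) and at Cldn4 by 0.48 (SE 0.13, adjusted p = 0.00565). They were lower at F11r and Tjp1. After centring Tjp1 (-0.32) was not called and Cldn1 was called higher at 0.95. Of all genes 35.2% were called higher and 21.0% lower, so the 4 and 2 members stand close to the background share. Epcam was lower by 0.82 (SE 0.39, adjusted p = 0.0833) and was called with the replicate number as a block in the 12 co-culture arrays (adjusted p = 0.0151). Cdh1 (-0.41), Ceacam1 (-0.29) and Cldn1 (0.28) were not called. Without replicate 1 of the erbB2-negative fraction, Cdh1 (-0.81), Epcam (-1.39) and Ceacam1 (-0.50) were called lower, and 9 members in all. Of all 19938 genes, 13221 were called then. Without replicate 3 of the erbB2-positive fraction, Epcam was called at -1.21.

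**Figure D2:**
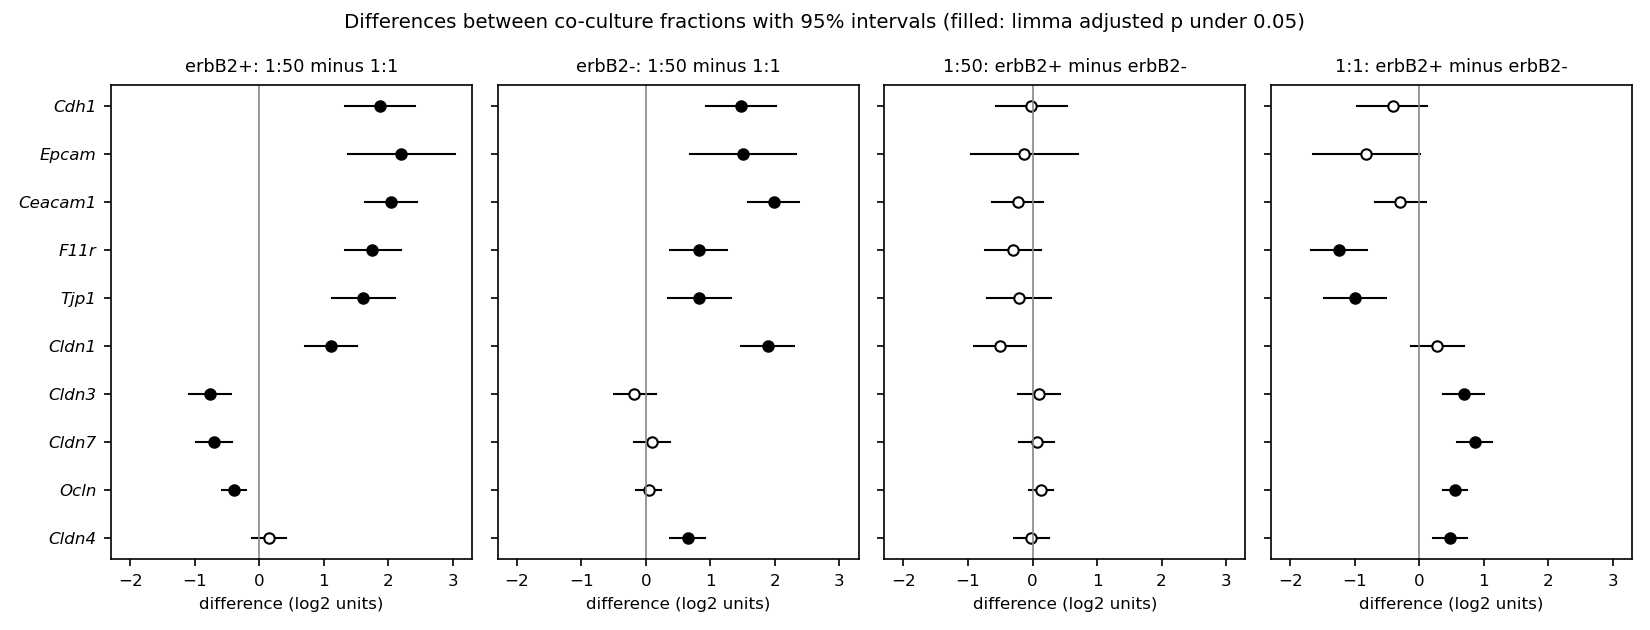
Differences of the 10 junction genes in 4 comparisons of co-culture fractions. The x axis is the difference in log2 units with its 95% interval from limma, and filled points have an adjusted p under 0.05. None of the 10 points is filled for the 1:50 erbB2-positive minus erbB2-negative comparison, and 9 are filled for the 1:50 minus 1:1 comparison of erbB2-positive cells.

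Whether the gap between sorted fractions depended on the ratio was tested by an interaction, the erbB2-positive minus erbB2-negative difference at 1:50 less that at 1:1. Cldn7 was the only member called, at -0.79 (SE 0.18, 95% interval -1.18 to -0.40, adjusted p = 0.0326), against 0.301% of genes called below 0. Its difference between fractions was 0.07 at 1:50 and 0.86 at 1:1. The call was lost when any of 9 of the 12 co-culture arrays was left out, with estimates from -0.82 to -0.71. It was also lost after centring (-1.24, adjusted p = 0.0827) and with only the co-culture arrays and no block (adjusted p = 0.0994), where none of the 10 was called. F11r was next, at 0.94 (SE 0.29, adjusted p = 0.0905), and Ocln at -0.43 (SE 0.13, adjusted p = 0.0767). With the replicate block in the co-culture arrays 3 members were called, Cldn7, Ocln (adjusted p = 0.0394) and F11r (adjusted p = 0.0413). That fit called 2480 of all 19938 genes, against 548 in the main fit. Without replicate 1 of the 1:1 erbB2-negative fraction, 8 were called, which leaves Cldn1 and Ceacam1 uncalled. Of all 19938 genes, 5303 were called then. Without replicate 1 of the 1:50 erbB2-positive fraction, F11r was called at 1.11, and after quantile normalization at 0.83 (adjusted p = 0.0375).

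The 9 members that differed between the lines were placed on a scale from the Comma-D mean (0%) to the MMTV-neu mean (100%), in log2 units. The scale has no direct reading as a share of cells. In the 1:1 erbB2-negative fraction Cldn7 stood at 2.45% ± 15.8 and Cldn3 at 19.3% ± 28.2, while Epcam stood at 51.2%, Cdh1 at 62.3% ± 31.7 (SD, n = 3), Tjp1 at 63.4%, Ceacam1 at 79.9% ± 9.94 and Cldn1 at 119% ± 12.7. Replicate 1 lay nearer to MMTV-neu than both fellows for 8 of the 9 genes (not Cldn1), at 97.0% against 55.0% and 34.8% for Cdh1, 50.4% against 12% and -4.52% for Cldn3 and 20.1% against -2.48% and -10.3% for Cldn7. F11r was at 30.0% and Ocln at -39.2%, beyond Comma-D. The Cldn1 position rests on values under the array median in this fraction and in MMTV-neu, whose difference (-0.27) was not called. The difference between the lines that sets the Cldn1 scale was 0.00 after centring. Genes called between the lines and at least 1 log2 unit apart had a median of 35.0% (quartiles 24.1% and 48.5%) if lower in MMTV-neu and 34.3% (27.2% and 41.5%) if higher.

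In the other 3 fractions the members lay nearer to one another. The 1:1 erbB2-positive positions ran from 73.7% for Epcam to 111% for Tjp1, with all-gene medians of 85.7% and 79.4%. The 1:50 erbB2-positive fraction held Cdh1 at -1.25%, Epcam at 13.4%, F11r at 11.8%, Ceacam1 at 33.0% and Tjp1 at 34.1%, with all-gene medians of 18.4% and 19.2%. The 1:50 erbB2-negative fraction held F11r at 0.965%, Cdh1 at -2.05%, Tjp1 at 24.1% ± 3.99 and Ceacam1 at 26.9% ± 6.44, where genes lower in MMTV-neu had a median of 1.28% (quartiles -5.89% and 8.42%). Ceacam1 and Tjp1 were therefore the members farthest toward MMTV-neu in both 1:50 fractions.

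**Figure D3:**
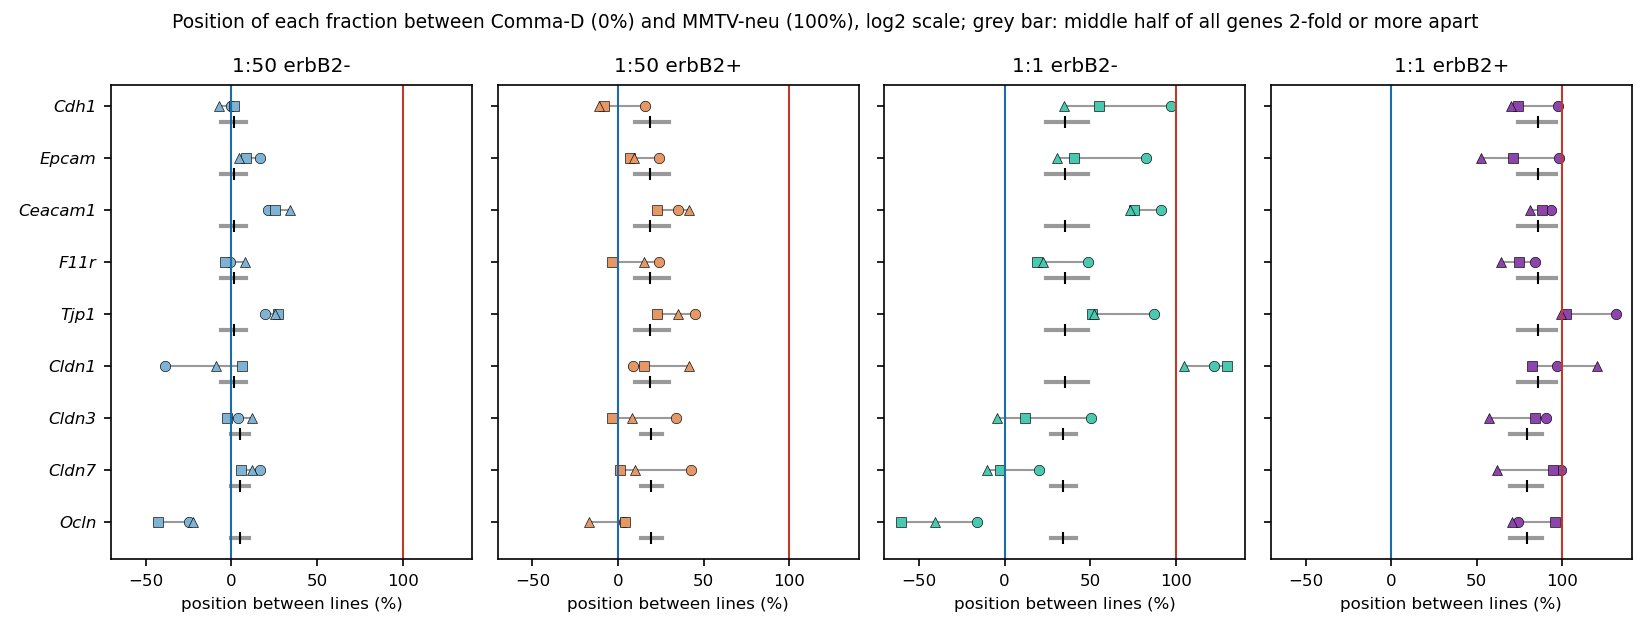
Position of 9 junction genes between Comma-D (0%) and MMTV-neu (100%) in the 4 co-culture fractions. The x axis is the position in percent on the log2 scale, points are the 3 arrays, and grey bars with a tick give the quartiles and median of all genes at least 1 log2 unit apart. In the 1:1 erbB2-negative panel Cldn1 sits at 119% and Cldn7 at 2.45%. Cldn1 was under the array median in that fraction and in MMTV-neu, and these groups were not called apart.

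Over the 18 arrays the members formed 2 sets that mirror the lines, since the arrays share 6 groups and the lines lie at the ends. Among the 6 genes lower in MMTV-neu, Pearson's r ran from 0.73 to 0.98 over 15 pairs (median 0.91), and among the 3 higher genes from 0.88 to 0.96. Between the sets r ran from -0.97 to -0.42, and Cldn4 had r of -0.15 to 0.41 with the other 9. After each group mean was taken out, r within the first set ran from -0.24 to 0.91 (median 0.65). Of 5812 genes with a standard deviation of at least 0.5, 232 had r of at least 0.95 with Cdh1 and 676 with Epcam. The nearest to Cdh1 were BC006965 (0.990), Mfsd2a (0.984), Nipal2 (0.983), Adgrg2 (0.982) and Acaca (0.982). The nearest to Epcam were Nipal2 (0.993), Pla2g7 (0.987), Sema5a (0.986), Ctnnb1 (0.985), which encodes β-catenin, the partner of E-cadherin, and Nkd2 (0.984).

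Genes that work with the members were counted from lists, beside the background shares given above for each comparison. Of 20 other claudins measured, 17 were higher in MMTV-neu than in Comma-D and 2 lower, with a median of 0.78. In the lowest class by Comma-D level 92.7% of all genes were called higher (median 0.61), and in the class above it 88.1% (median 0.95). Cldn11 and Cldn15 were at 5.26 and 5.54 in Comma-D. Cldn12 was the lowest at -2.12 (SE 0.18), and Cldn11 (1.50) and Cldn15 (1.37) were the highest. Of 16 catenins, nectins and other adherens junction partners, 8 were lower and 4 higher. In the highest class by Comma-D level 83.7% of all genes were called lower. Ctnnd1, which encodes the p120 catenin that holds E-cadherin at the surface, differed by -3.47 (SE 0.17), plakoglobin (Jup) by -2.63 and Ctnnb1 by -2.45 (SE 0.21). Of 10 EpCAM partners and proteases, 8 were lower and 2 higher, among them Cd44 (-3.46), Cd9 (-3.08), which encodes a tetraspanin, and Spint2 (-2.38), which encodes an inhibitor of matriptase. The 32 other tight junction and polarity genes were evenly divided, 12 lower and 13 higher, with Cxadr, an adhesion molecule akin to JAM-A, at -2.22 (SE 0.19) and the polarity kinase Prkcz at 1.43.

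Most listed repressors of E-cadherin were lower in the line with less Cdh1, as were most genes of the highest class by Comma-D level. Of 12 repressors, 7 were lower in MMTV-neu than in Comma-D and 2 higher, with Prrx1 at -3.77, Tcf4 at -2.86, Zeb2 at -1.98 and Snai2 at -1.86. Prrx1 and Tcf4 were at 10.12 and 9.94 in Comma-D. In the highest class by Comma-D level 83.7% of all genes were called lower. Of 16 epithelial regulators, 10 were higher and 3 lower, a share near the 56.4% of all genes called higher, with Foxa1, a luminal factor, at 2.73 and Ehf, an ETS factor of epithelia, at -2.75 (SE 0.22). Other cadherins were mostly higher, 18 of 22, while N-cadherin (Cdh2) was at -2.04 (SE 0.42). Of all genes in the lowest class by Comma-D level 92.7% were called higher, and in the class above it 88.1%. In the 1:50 erbB2-positive fraction, whose Cdh1 differed from Comma-D by 0.03, 4 of the 12 repressors were lower than Comma-D and none higher: Prrx1 (-0.83), Zeb2 (-0.81), Zeb1 (-0.68) and Snai1 (-0.55). Between the erbB2-positive fractions, 8 repressors were higher at 1:50 than at 1:1 and 2 lower, the same side as Cdh1. In the highest class by Comma-D level 77.9% of all genes were called higher at 1:50. In that comparison Ctnnd1 (1.90), Jup (1.95), Ctnnb1 (1.73) and Cd44 (2.10) were also higher at 1:50.

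In the 1:1 erbB2-negative fraction, more partners of the junction genes were called lower than higher against Comma-D, and many were not called. Of all genes 20.9% were called lower, and of the highest class by Comma-D level 53.5%. Ctnnb1, Afdn and Spint2 were at 11.47, 9.49 and 9.54 in Comma-D. In the lists, 6 of 16 adherens junction partners were lower and none higher, with Ctnnb1 at -0.98 and the nectin linker Afdn at -0.93. Of the EpCAM partners and proteases, 6 of 10 were lower and 1 higher, with matriptase (St14) at -1.28, Spint2 at -1.12 and Spint1 at -1.07. Among the other tight junction and polarity genes 11 of 32 were lower and 3 higher, with Cxadr at -1.82 and the tricellular protein gene Ildr1 at -0.98. Ehf was at -2.49, which is 90.5% of the way to MMTV-neu. Ctnnd1 stood at 27.8% and Ctnnb1 at 39.9%, near the medians of all genes.

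**Figure D4:**
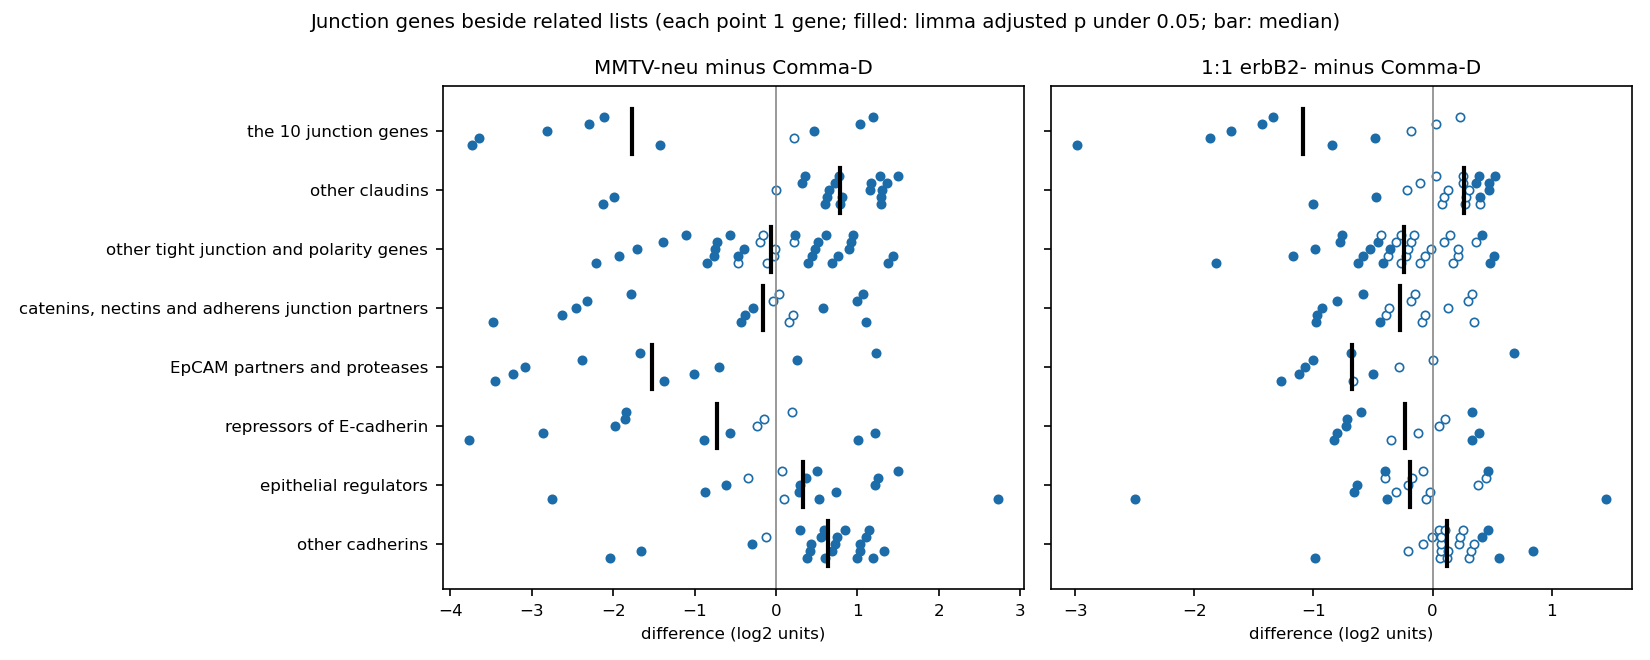
The 10 junction genes and 7 lists of related genes in MMTV-neu minus Comma-D and in 1:1 erbB2-negative minus Comma-D. The x axis is the difference in log2 units, each point is a gene and each bar the list median. The EpCAM partners have a median of -1.52 and the other claudins of 0.78 in the comparison of the lines.

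Markers of other cells were read beside these results, and their part in them was not tested. The summed linear level of 10 fibroblast and mesenchymal markers ranged from 22400 to 23000 in Comma-D, from 2010 to 2300 in MMTV-neu, from 15100 to 20000 in the 1:1 erbB2-negative and from 6440 to 10300 in the 1:1 erbB2-positive fraction. For 8 basal markers the sums were 10700 to 10900 (Comma-D), 1480 to 1730 (MMTV-neu) and 9960 to 14300 (1:1 erbB2-negative), and for 9 luminal markers 2420 to 2560, 4870 to 5830 and 3450 to 4470. Endothelial markers summed to 331 to 343 in Comma-D and 642 to 699 in MMTV-neu, with 0 and 2 of 8 above the array median on all arrays. Leukocyte markers summed to 389 to 424 and 661 to 698, and adipocyte markers to 331 to 347 and 477 to 498. Pecam1 (5.33 and 6.38), Cdh5 (5.46 and 6.49) and Ptprc (5.08 and 5.95), which define endothelium and leukocytes, were low in both lines.

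The arrays' common scale bears on the directions. Centring each array on 9 reference genes moved the median difference over all genes between MMTV-neu and Comma-D from 0.40 to 1.82, so that 4 members were higher and 5 lower in place of 3 and 6, and the share of calls that were higher rose from 65.0% to 89.9%. For 1:50 minus 1:1 erbB2-positive cells the share went from 38.4% to 10.8% and the members from 6 higher and 3 lower to 5 and 4. For 1:1 erbB2-positive minus erbB2-negative cells it went from 62.7% to 91.8%, with 5 members higher and 1 lower. For the 1:1 erbB2-negative fraction against Comma-D it went from 41.6% to 91.3%, with 1 member higher (Cldn3, 0.65) and 5 lower. For the 1:50 against the 1:1 erbB2-negative fraction it fell from 70.7% to 6.15%, and to 46.2% after quantile normalization, with 4 and 3 members called, all higher. The shares went from 30.9% to 9.18% for the 1:50 erbB2-positive fraction against MMTV-neu, from 58.5% to 87.8% for the 1:1 erbB2-positive fraction against Comma-D, from 27.3% to 7.71% for the 1:1 erbB2-negative fraction against MMTV-neu (38.9% after quantile normalization) and from 20.5% to 42.1% for the 1:50 erbB2-positive fraction against Comma-D. For 1:1 erbB2-positive cells against MMTV-neu the share was 23.0%, then 5.98% centred and 42.6% quantile normalized, and for the interaction 89.1%, with 65.9% quantile normalized. For 1:50 erbB2-negative cells against Comma-D it was 35.3%, with 20.4% quantile normalized. Cdh1, Epcam, Tjp1, Ceacam1 and F11r stayed lower, and Cldn3, Cldn7 and Ocln higher, in MMTV-neu under centring and quantile normalization. Sizes moved: after centring Cdh1 was at -0.87, Tjp1 at -0.69, Epcam at -2.22, F11r at -1.39 and Ceacam1 at -2.31, while Cldn3 was at 2.61, Cldn7 at 2.46 and Ocln at 1.89.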

How the data were processed

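RNA of 18 samples was read on whole-transcript mouse arrays, 3 in each of 6 groups, which were taken from the sample titles. The deposited log2 values were made with RMA, R 3.1.2 and limma, per the submitters' processing notes; summarisation, filters and build: not given in the sources used here. Of 35556 probe sets, 21789 name a single gene in the platform annotation, 1621 name several and were left out, and the rest are unnamed here. The RefSeq gene table matched 21698 of them and changed 0 symbols. For each of 19938 genes the probe set of highest mean over all arrays was used, with no filter on low values.

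Groups were compared by lmFit and eBayes of limma 3.58.1 (R 4.3.3) in 1 fit of 18 arrays, which leaves 12 degrees of freedom. Two-sided tests were used, with Benjamini-Hochberg adjusted p-values over all genes and a threshold of 0.05. The scripts were tested on simulated data. Arrays give no depth, so their number limits the precision. The members and the lists of related genes were chosen with earlier results of these data known. Named besides the members are up to 4 called genes per list and comparison with the largest difference and arrays that do not overlap, the 5 genes nearest to Cdh1 and to Epcam by Pearson's r, and markers.

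The titles give replicate numbers. In the 4 comparisons between co-culture fractions, same-numbered arrays deviated together, with every pair's correlation between 0.148 and 0.702. These numbers were therefore taken to pair the samples in the alternative with a block, while the main fit had none. For 1:1 erbB2-negative with 1:50 erbB2-positive arrays the correlations ran from 0.5701 to 0.8492. For 1:50 erbB2-negative with 1:1 erbB2-positive arrays they ran from 0.0737 to 0.2122. The highest was thus between fractions of different ratios, and what a number marks is not given. Among pairs with a line, most correlations were near 0. Alternatives were the replicate number as a block, quantile normalization, centring on 9 reference genes, array weights, a filter that removes 40% of genes, probe sets of a gene averaged, other priors, a threshold of 0.01, only the compared arrays, and each array left out. Each probe set on its own gives the same values as each member has 1.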

Additional observations from a re-analysis of the deposited data

Results flagged for a closer look

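Cldn7, which encodes claudin-7, was the only one of the 10 genes called, without a replicate block, in the test of whether the gap between erbB2-positive and erbB2-negative fractions differed between the 1:50 and the 1:1 co-culture. The interaction was -0.79 (SE 0.18, adjusted p = 0.0326, limma), from a difference of 0.07 at 1:50 and of 0.86 at 1:1. On every 1:1 erbB2-positive array Cldn7 was higher than on every 1:1 erbB2-negative array, while the 1:50 arrays overlapped. The call was lost in 9 of 12 repeats with 1 array left out, after centring (adjusted p = 0.0827) and with only the 12 co-culture arrays and no block (adjusted p = 0.0994). With the replicate number as a block F11r was called too (adjusted p = 0.0368), and in the co-culture arrays alone both Ocln (adjusted p = 0.0394) and F11r (adjusted p = 0.0413). After quantile normalization, without a block, F11r was also called, at 0.83 (adjusted p = 0.0375). Groups of 3 arrays were not screened for outlying samples.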

How the results depend on the processing

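Counts of the 10 genes called kept within 1.5 times of the value given under most alternatives. Array weights, whose fit stopped before convergence, raised the count to 7 (from 1) for 1:50 erbB2-positive minus Comma-D, to 4 (from 0) for the 1:50 fractions and to 10 (from 6) for the 1:1 fractions; with only the compared arrays fitted it was 2 for 1:50 erbB2-positive minus Comma-D. Array weights also gave 9 (from 1) for the interaction, 3 (from 1) for 1:1 erbB2-positive minus MMTV-neu and 2 (from 1) for 1:50 erbB2-negative minus Comma-D; with 1 array left out these counts ran from 0 to 8, 0 to 2 and 0 to 1. Calls over all 19938 genes rose with array weights too. They went from 1139 to 8970 for 1:50 erbB2-positive minus Comma-D and from 2 to 7024 for the 1:50 fractions. For the 1:1 fractions they went from 11195 to 16899, and for the interaction from 548 to 13911. For 1:1 erbB2-positive minus MMTV-neu they went from 3658 to 5926, and for 1:50 erbB2-negative minus Comma-D from 334 to 2425. With each array left out in turn the count stayed at 9 for the lines, for 1:50 erbB2-positive minus MMTV-neu and for 1:50 minus 1:1 erbB2-positive cells, at 1 for 1:50 erbB2-positive minus Comma-D, at 0 for the 1:50 fractions and between 6 and 9 for the 1:1 fractions. With the replicate block the count was 7 for the 1:1 fractions and 9 for 1:50 minus 1:1 erbB2-positive cells; beside the calls given above, it changed no other call.

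Results for single genes turned over 9 times. Centring on reference genes gave 0.00 for Cldn1 in MMTV-neu minus Comma-D, -0.06 for Cldn1 in 1:50 erbB2-positive minus MMTV-neu, -0.69 for Cldn4 in 1:50 minus 1:1 erbB2-positive cells, 1.09 for Cldn4 in 1:1 erbB2-positive minus Comma-D, and, in 1:1 erbB2-negative minus MMTV-neu, -0.14 for Cdh1, -0.23 for Tjp1 and -0.25 for Ceacam1. Quantile normalization gave 0.32 for Cldn4 in 1:1 erbB2-positive minus Comma-D, and array weights 0.21 for Cldn4 in the 1:50 fractions. Centring moves every gene of an array by the same amount, since the reference genes themselves differed by -1.42 between the lines; the cause of the other turns was not tested. Signal near background limits Epcam, Cldn1 and Ceacam1 in MMTV-neu.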
